A study of Homo sapiens with 3 samples.

Results

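The genes described here are the OVOL repressors and the regulators with which they set the balance between epithelial and mesenchymal states. They are 10 of the 29960 genes in the deposited table and were picked by symbol, with earlier results of these data known. The group holds OVOL1 and OVOL2, the epithelial regulators GRHL2, ESRP1 and ESRP2, the mesenchymal transcription factors ZEB1, ZEB2 and SNAI2, and the mesenchymal genes VIM and CDH2. RNA was sequenced from 5637, an established human bladder cancer line, as the parental line (5637P) and a gemcitabine-resistant derivative (5637GR). All libraries came from single-cell clones grown in RPMI with fetal bovine serum and labelled as untreated at harvest, with the parental genotype given as WT. The labels name an acute gemcitabine treatment as the origin of 5637GR, and the study's methods name a continuous exposure. The libraries with a label were 1 of 5637P and 2 of 5637GR, each from 1 clone, so a difference between clones and a difference between lines cannot be told apart for 5637P.

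Epithelial-mesenchymal transition (EMT) is the loss of cell-cell junctions and epithelial gene expression in favour of a migratory mesenchymal state. OVOL1 and OVOL2 are zinc finger repressors that hold cells epithelial by silencing ZEB1 and other mesenchymal genes, and ZEB1, ZEB2 and SNAI2 in turn repress epithelial genes such as CDH1 through E-box sequences. GRHL2 activates epithelial junction genes and opposes ZEB1, and ESRP1 and ESRP2 direct the epithelial pattern of alternative splicing. The study named OVOL1 as a candidate regulator of resistance from its target genes among those that differed. It also reported more OVOL1 protein in the cytoplasm of resistant cells, which RNA levels do not measure. By qPCR, the study found more OVOL1 and OVOL2 RNA in mouse tumours of resistant cells than in parental tumours. Its discussion also refers to a transcriptional elevation of OVOL1. The libraries used here came from cultured clones and not from tumours. The comparison here asks only whether the RNA of these genes differed between 5637GR and 5637P.

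In these libraries the pair of OVOL genes lay on opposite sides of the parental level. OVOL1 had more reads in both 5637GR libraries than in 5637P, and OVOL2 fewer. VIM was above and CDH2 below the parental level in both 5637GR libraries, so the mesenchymal genes did not lie on 1 side. ZEB1 had 4 to 20 reads and ZEB2 28 to 45 reads in a library, the fewest of the members. None of the 10 members passed the test across all genes, edgeR's quasi-likelihood test at a Benjamini-Hochberg adjusted p of 0.05, which called 137 of 15643 tested genes (0.876%), 0.294% higher and 0.582% lower in 5637GR. At an unadjusted p under 0.05, 2 members were below the threshold, VIM on the higher and CDH2 on the lower side, against 9.7% of all tested genes, 4.85% on each side. DESeq2 and limma-voom also called 0 members and had 2 each below the unadjusted threshold. Both 5637GR libraries lay on the same side of the parental library for 9 of the 10 members, against 69.7% of all tested genes. The authors' group means are over all clones of a group, so they are not independent of these libraries. They lay on that side too for the same 9 members, against 63.3% of all tested genes. The exception was SNAI2.

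The DNA letters that the OVOL and ZEB families are known to recognise were looked up in RefSeq promoter windows (GRCh38.p14) of 300 bases, from 250 before to 50 after a start site. Windows were used for 4 members, 7 of ZEB1, 1 of ZEB2, 1 of VIM and 2 of CDH2. The OVO core CCGTTA, which reads as TAACGG on the other strand, was present in 3.07% of all 35116 windows. The E-box CAGGTG, which reads as CACCTG on the other strand, was present in 20.6%, and these letters do not overlap the OVO core. Of the 7 ZEB1 windows, 1 held the OVO core, 2 held E-boxes and 4 held neither. Those with the OVO core and the ZEB1 window with the most E-boxes are shown, with these letters in capitals. The first is the ZEB2 window at chr2:144520070-144520369 on the minus strand, with 1 OVO core. The next is a ZEB1 window at chr10:31319518-31319817 on the plus strand, with 1 OVO core, and the last is a ZEB1 window at chr10:31318966-31319265 on the plus strand, with 3 E-boxes.
ZEB2: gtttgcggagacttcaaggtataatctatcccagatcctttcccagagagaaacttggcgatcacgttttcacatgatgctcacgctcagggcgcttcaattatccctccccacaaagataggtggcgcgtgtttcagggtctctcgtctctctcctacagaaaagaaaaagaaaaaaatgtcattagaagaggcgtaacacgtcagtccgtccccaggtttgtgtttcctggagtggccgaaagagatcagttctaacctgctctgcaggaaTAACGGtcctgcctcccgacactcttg
ZEB1 with an OVO core: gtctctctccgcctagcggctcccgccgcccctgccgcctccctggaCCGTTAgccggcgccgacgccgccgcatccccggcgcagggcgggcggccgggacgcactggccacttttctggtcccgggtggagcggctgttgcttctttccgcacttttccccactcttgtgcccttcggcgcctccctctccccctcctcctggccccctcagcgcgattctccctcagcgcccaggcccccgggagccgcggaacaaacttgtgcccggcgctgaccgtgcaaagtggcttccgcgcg
ZEB1 with E-boxes: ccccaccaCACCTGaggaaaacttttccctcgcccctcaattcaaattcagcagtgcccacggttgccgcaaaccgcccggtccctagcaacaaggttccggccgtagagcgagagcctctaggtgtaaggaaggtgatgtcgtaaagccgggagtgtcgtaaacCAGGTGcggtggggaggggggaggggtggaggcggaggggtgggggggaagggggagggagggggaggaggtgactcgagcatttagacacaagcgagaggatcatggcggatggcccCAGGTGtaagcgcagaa
The OVO core began at position 24 relative to the ZEB2 start site and at position -203 relative to the ZEB1 start site of its window. The VIM window and both CDH2 windows held neither set of letters. A match is a description of the letters in these windows and no evidence of binding.

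OVOL1 (ENSG00000172818, hg19 chr11:65554493-65564690, plus strand) had 161 reads in 5637P and 319 and 397 reads in the 5637GR libraries. As CPM, reads scaled by library size and TMM factor, these were 11.4 CPM in 5637P and 19.5 and 22.9 CPM in 5637GR. Both resistant libraries lay above the parental one, and their exact Poisson intervals, which cover counting error only, did not overlap its interval (9.73 to 13.3 CPM). The 5637GR libraries were 1.71-fold and 2.00-fold of 5637P. The fitted log2 fold change was 0.89 (SE 0.40, 95% interval -0.01 to 1.79), with an edgeR p of 0.0524 and an adjusted p of 0.525. The authors' group means, given over all clones of a group with no spread, were 149.1 for 5637P and 287.5 for 5637GR, a log2 ratio of 0.94.

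OVOL2 (ENSG00000125850, hg19 chr20:17937623-18039832, minus strand) had 277 reads in 5637P and 184 and 219 in 5637GR. The levels were 19.7, 11.2 and 12.6 CPM in the same order. Both resistant libraries were below the parental one, at 0.572-fold and 0.642-fold of it, outside its counting interval of 17.4 to 22.1 CPM. Its fitted log2 fold change was -0.72 (SE 0.39, interval -1.59 to 0.15), with an edgeR adjusted p of 0.627, and the authors' means of 279.7 and 185.3 lay in the same order. The lower OVOL2 level in the resistant libraries is opposite in direction to the study's qPCR result in tumours. The cause of that difference was not tested. The annotated OVOL2 gene overlaps SNX5 on its own strand over 12001 bases and MGME1 on the opposite strand over 22210 bases. Whether the libraries kept strand was not given in the sources used here, so reads from these overlapping genes may not be separable from OVOL2. SNX5 had 943, 884 and 730 reads and MGME1 507, 490 and 316 reads in 5637P and the 5637GR libraries, and their part in the OVOL2 values was not tested.

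**Figure D1:**
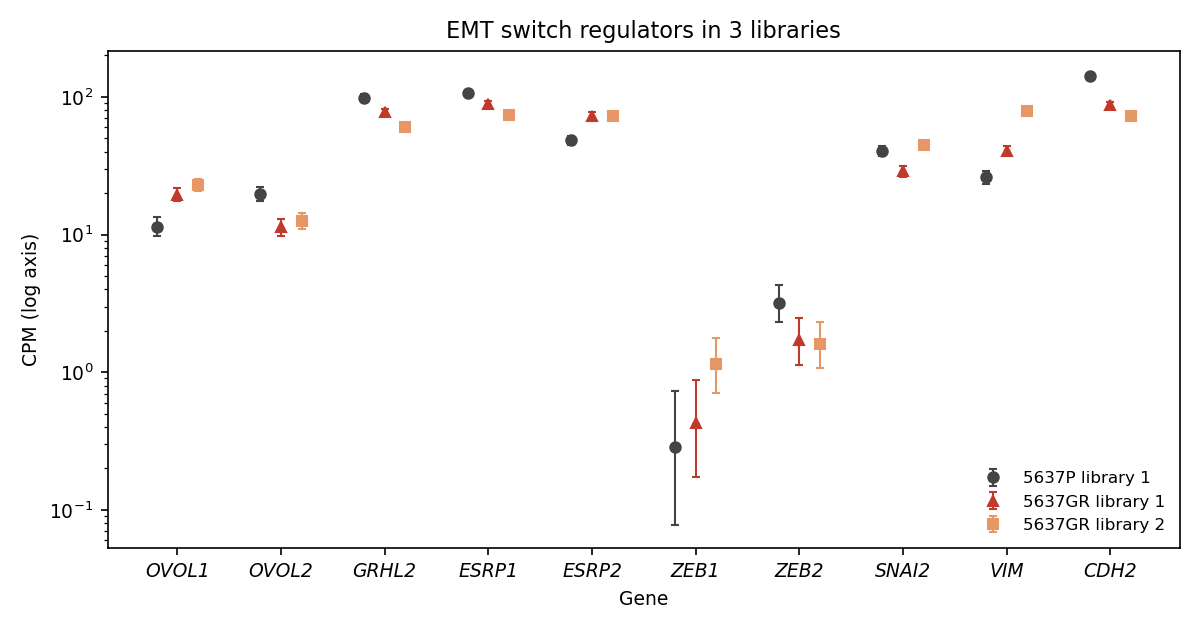
TMM-scaled CPM of each member on a log axis in the 5637P library (circle) and the 5637GR libraries (triangle and square), with exact 95% Poisson intervals of the count as bars. OVOL1, ESRP2 and VIM sit above the circle in both 5637GR libraries, OVOL2, GRHL2, ESRP1 and CDH2 below it, and the bars of ZEB1 overlap.

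The OVOL genes changed order by read number between the lines. The share of OVOL1 among the reads of both OVOL genes was 36.8% in 5637P (exact 95% binomial interval 32.2 to 41.5%), 63.4% in 5637GR library 1 (59.0 to 67.6%) and 64.5% in 5637GR library 2 (60.5 to 68.2%). The intervals of the resistant libraries overlapped each other and lay above that of 5637P. A read share does not compare levels, since the genes differ in length. Per length, in FPKM, which divides by gene length and library size, OVOL1 stood at 0.298 of OVOL2 in 5637P and at 0.889 and 0.929 of it in 5637GR. On this scale OVOL2 was the higher of the pair in all 3 libraries. In the authors' means the share of OVOL1 was 34.8% for 5637P and 60.8% for 5637GR. This pair and the pairs that follow were chosen after their values were seen, and no test was run on them.

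GRHL2 (ENSG00000083307, hg19 chr8:102504660-102681954, plus strand), the grainyhead factor that keeps junction genes active, had 1391 reads in 5637P and 1261 and 1042 in 5637GR. These gave 98.7, 77.1 and 60.0 CPM. Both resistant libraries were below the counting interval of 5637P, and they also differed from each other beyond counting error. The fit gave a log2 fold change of -0.53 (SE 0.35, interval -1.31 to 0.26), with an edgeR adjusted p of 0.724, and the authors' means were 1405 and 1101. GRHL3, a grainyhead factor of terminal epithelial differentiation, had 28 reads in 5637P and 218 and 200 in 5637GR. Its log2 fold change of 2.64 (SE 0.52) had an edgeR adjusted p of 0.054, and its authors' means stood closer together, at 51.7 and 129.4, a ratio of 2.50. GRHL2 took 98.0% of the reads of both genes in 5637P and 85.3% and 83.9% in 5637GR, and was the higher of the pair per length in every library. In the authors' means the share of GRHL2 was 96.5% for 5637P and 89.5% for 5637GR, a smaller difference than in the 3 libraries.

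The splicing regulators ESRP1 and ESRP2 lay on opposite sides of the parental level. ESRP1 (ENSG00000104413, hg19 chr8:95653302-95719694, plus strand) had 1511 reads in 5637P and 1453 and 1285 in 5637GR, or 107, 88.8 and 74.0 CPM. The resistant libraries were 0.829-fold and 0.690-fold of 5637P. The fit gave a log2 fold change of -0.40 (SE 0.35, interval -1.17 to 0.38), and the edgeR adjusted p was 0.837.

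ESRP2 (ENSG00000103067, hg19 chr16:68263014-68272005, minus strand) had 682 reads in 5637P and 1194 and 1265 in 5637GR, or 48.4, 73.0 and 72.8 CPM. The 5637GR libraries agreed within counting error, both at 1.51-fold of 5637P. The log2 fold change was 0.59 (SE 0.35, interval -0.20 to 1.38), with an edgeR adjusted p of 0.68. The authors' means stood closer together, at 800.9 and 912.9, a ratio of 1.14. ESRP1 made up 68.9% of the reads of both ESRP genes in 5637P (66.9 to 70.8%), 54.9% in 5637GR library 1 (53.0 to 56.8%) and 50.4% in 5637GR library 2 (48.4 to 52.4%). Per length, ESRP1 was 2.23 times ESRP2 in 5637P, and 1.22 and 1.02 times in 5637GR. In the authors' means the share of ESRP1 was 64.9% for 5637P and 56.8% for 5637GR, a smaller difference than in the 3 libraries.

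**Figure D2:**
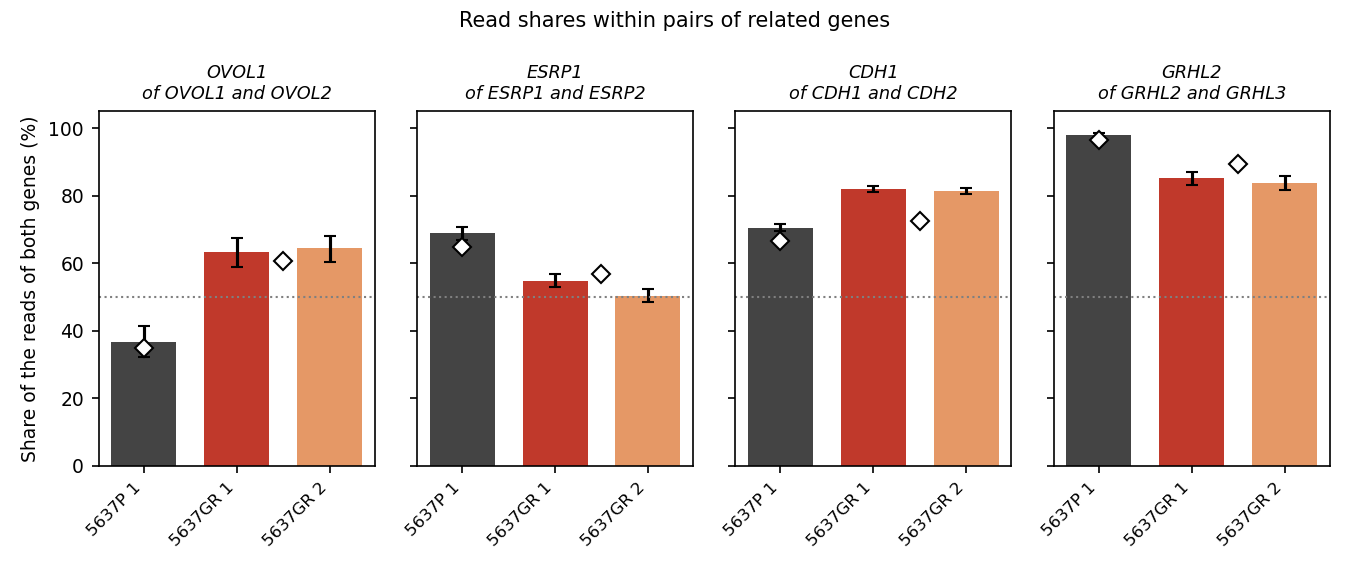
Share of the first gene among the reads of both genes of a pair (%) in the 5637P library and the 5637GR libraries, with exact 95% binomial intervals as bars; diamonds are shares from the authors' group means and the dotted line is an equal split. OVOL1 goes from 36.8% in 5637P to 63.4% and 64.5% in 5637GR, and ESRP1 from 68.9% to 54.9% and 50.4%.

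ZEB1 (ENSG00000148516, hg19 chr10:31607424-31818742, plus strand), the zinc finger repressor of CDH1 that the OVOL proteins silence, had 4 reads in 5637P and 7 and 20 reads in 5637GR. These gave 0.284, 0.428 and 1.15 CPM, and 3 counts corresponded to 0.213, 0.183 and 0.173 CPM in the same libraries. Library 2 of 5637GR was the highest, and its counting interval of 0.703 to 1.78 CPM overlapped that of 5637P, 0.0773 to 0.727 CPM, at its lower end. Its fitted log2 fold change was 1.46 (SE 1.16, interval -1.13 to 4.04), with an edgeR adjusted p of 0.805. Its antisense partner ZEB1-AS1, which overlaps it over 1387 bases on the other strand, had 3, 7 and 12 reads, against the 4, 7 and 20 of ZEB1.

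ZEB2 (ENSG00000169554, hg19 chr2:145145568-145282147, minus strand), the paralog of ZEB1, had 45 reads in 5637P and 28 in each 5637GR library. These gave 3.19, 1.71 and 1.61 CPM. The resistant libraries were below the parental one, but their counting intervals, up to 2.47 and 2.33 CPM, reached that of 5637P, which began at 2.329 CPM. The log2 fold change was -0.94 (SE 0.61, interval -2.30 to 0.42), with an edgeR adjusted p of 0.715. ZEB1 made up 8.16% of the reads of both ZEB genes in 5637P (exact 95% binomial interval 2.27 to 19.6%), 20% in 5637GR library 1 (8.44 to 36.9%) and 41.7% in 5637GR library 2 (27.6 to 56.8%). The interval of library 2 lay above that of 5637P, and that of library 1 overlapped both.

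SNAI2 (ENSG00000019549, hg19 chr8:49830249-49834299, minus strand) encodes Slug, a zinc finger repressor of CDH1 that basal epithelial cells also express. It had 572 reads in 5637P and 472 and 777 in 5637GR, or 40.6, 28.9 and 44.7 CPM. The parental library lay between the resistant libraries, which differed from each other by more than counting error. The log2 fold change was -0.14 (SE 0.39, interval -1.01 to 0.73), with an edgeR adjusted p of 0.971, and it was 0.14 without 5637GR library 1. The value without library 1 is the log2 CPM ratio of 5637GR library 2 over 5637P and not a refit. The authors' means, 670.9 and 700.5, gave a log2 ratio of 0.06. SNAI2 was the most abundant of the 3 mesenchymal transcription factors per length in every library, at 17.9 FPKM in 5637P and 13.5 and 20.2 FPKM in 5637GR.

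VIM (ENSG00000026025, hg19 chr10:17270258-17279592, plus strand) encodes vimentin, the intermediate filament of mesenchymal cells. It had 366 reads in 5637P and 666 and 1362 in 5637GR, or 26.0, 40.7 and 78.4 CPM. Both resistant libraries were above the parental one, at 1.57-fold and 3.02-fold of it, and the gap between them was wider than that between 5637P and the nearer of them. For VIM the log2 fold change was 1.20 (SE 0.46, interval 0.18 to 2.22), with an edgeR p of 0.0259 and an adjusted p of 0.42. The authors' means of 608.6 and 957.7 gave a log2 ratio of 0.65. VIM-AS1, on the opposite strand, had 6, 7 and 15 reads.

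CDH2 (ENSG00000170558, hg19 chr18:25530930-25757410, minus strand) encodes N-cadherin, the adhesion molecule that replaces E-cadherin in mesenchymal cells. It had 1998 reads in 5637P and 1417 and 1262 in 5637GR, or 142, 86.6 and 72.7 CPM. Both resistant libraries were below the parental counting interval, at 0.611-fold and 0.513-fold of 5637P. The log2 fold change was -0.83 (SE 0.35, interval -1.60 to -0.06), with an edgeR p of 0.0371 and an adjusted p of 0.464, and the authors' means were 2433 and 1725. CDH1, which encodes E-cadherin, had 340 CPM in 5637P and 397 and 320 CPM in 5637GR, a log2 fold change of 0.08 (edgeR adjusted p 0.986). CDH1 made up 70.6% of the reads of both cadherin genes in 5637P and 82.1% and 81.5% in 5637GR. In the authors' means the shares were 66.6% and 72.7%, and CDH2 in 5637GR was at 0.709-fold of 5637P. Both differences were smaller than in the 3 libraries. P-cadherin, encoded by CDH3, was measured at 287, 332 and 331 CPM (edgeR adjusted p 0.942).

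Compared per length, the members fell into 3 tiers of FPKM in the 5637GR libraries. There, VIM (mean 22.5 FPKM), ESRP1 (21.9), ESRP2 (19.5), CDH2 (18.7), SNAI2 (16.9) and GRHL2 (13.3) formed the upper tier, in which each neighbour's range over the 2 libraries overlapped the next. OVOL2 (7.77 FPKM) and OVOL1 (7.07) formed the middle tier, with ranges that overlapped each other and did not reach GRHL2 above or ZEB2 below. ZEB2 (0.268 FPKM) and ZEB1 (0.127) came last and did not overlap. These tiers did not hold in 5637P, where OVOL2 (12.3 FPKM) stood beside ESRP2 (12.4) and above VIM (9.48), and OVOL1 (3.67) below them. CDH2 had rank 1 in 5637P at 31.9 FPKM and VIM rank 7, whereas VIM had rank 4 in 5637GR library 1 and rank 1 in 5637GR library 2.

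**Figure D3:**
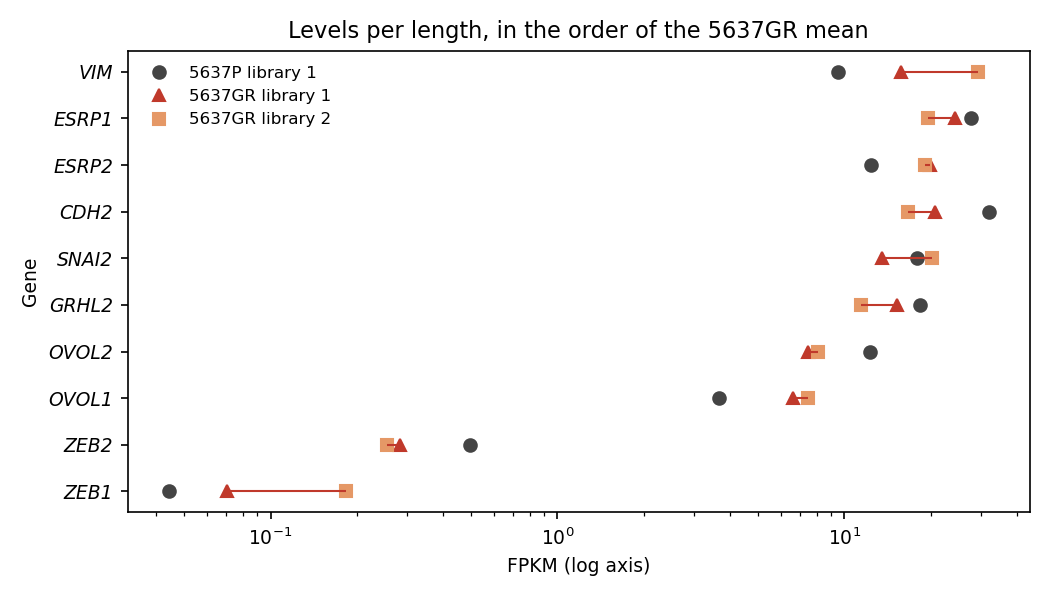
Deposited FPKM of each member on a log axis, ordered by the mean of the 5637GR libraries (triangle and square, joined by a line that spans their range), with the 5637P library as a circle. The ZEB genes lie below 0.5 FPKM in every library, and the other 8 members lie above 3 FPKM.

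The other genes of the EMT programme were taken from fixed lists, each described by its calls and its median log2 fold change in the same fit, where the median of all 15643 tested genes was 0.03 and that of the 10 members was -0.27. Of the 27 epithelial junction and surface genes tested, 1 rose, CLDN3, a tight junction claudin, and 0 fell, with a median of 0.21. CLDN3 had 7 reads in 5637P and 135 and 169 in 5637GR, a log2 fold change of 4.16 (SE 0.65) with an edgeR adjusted p of 0.0197, which was 0.0905 with limma-voom. The authors' means for CLDN3 were 12.9 and 94.6. In this list 16 genes were above the parental level in both 5637GR libraries and 5 below, against 35.2% and 34.5% of all tested genes. The keratin genes KRT8 and KRT18, of simple epithelia, were among the 5.

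Of 16 tested mesenchymal genes, 0 rose and 1 fell, SPARC, which encodes a secreted matrix glycoprotein, and the median was 0.08. SPARC had 238 reads in 5637P and 42 and 18 in 5637GR, a log2 fold change of -3.23 (SE 0.56) with an edgeR adjusted p of 0.0297, and authors' means of 291.3 and 73.9. Without 5637GR library 2, as log2 CPM ratios of 5637GR library 1 over 5637P, the median of the list was -0.22. Of the 6 other EMT transcription factors tested, 0 were called, with a median of 0.16 that was -0.12 over genes with a mean of at least 10 CPM and 0.43 with no filter on low counts. TWIST1, a basic helix-loop-helix factor of EMT, had 313 reads in 5637P and 507 and 1006 in 5637GR, a log2 fold change of 1.00 with an edgeR p of 0.0505 and an adjusted p of 0.516. SNAI1, the Snail gene, had 6, 11 and 2 reads.

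The remaining fixed lists, cell type markers apart, held 0 calls in either direction by edgeR. At an unadjusted p under 0.05 lay 9.7% of all tested genes, 4.85% on each side. Of 9 other epithelial transcription factors, 2 had an unadjusted p under 0.05, both higher in 5637GR, and the median was -0.32. Of 9 genes of the epithelial splicing programme, 0 were below that threshold and the median was -0.21. Of 16 TGF-beta pathway genes, 5 were below it, 2 higher and 3 lower in 5637GR, with a median of -0.20. MIR200CHG, the host transcript of miR-200c and miR-141, which repress the ZEB genes, had 21 reads in 5637P and 8 and 10 in 5637GR (edgeR adjusted p 0.65). OVOL1-AS1, antisense to OVOL1 over 1818 bases, had 3, 10 and 3 reads, far fewer than OVOL1. GRHL3-AS1 had 1, 3 and 10 reads and was not tested.

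**Figure D4:**
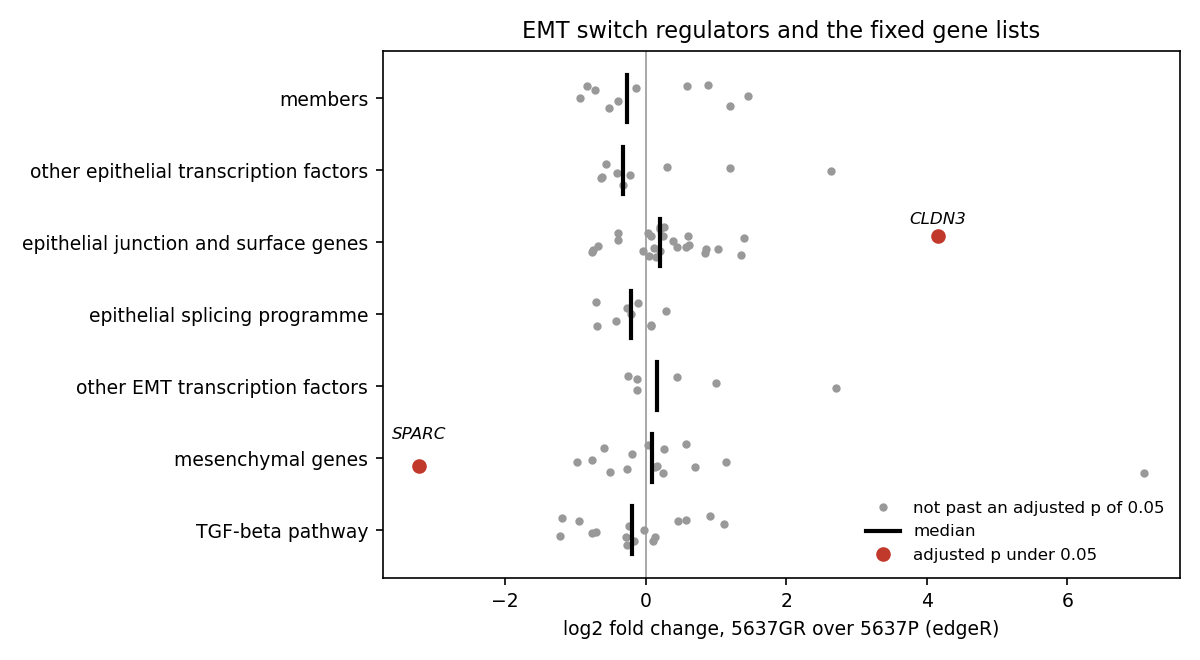
Fitted log2 fold changes (5637GR over 5637P, edgeR) of the members and of the fixed gene lists, 1 point per tested gene, with the median of each list as a bar and genes past an adjusted p of 0.05 in red. No member is red, CLDN3 stands at 4.16 and SPARC at -3.23. The point near 7 is THY1, which had 0 reads in the 5637P library, so that its fitted value is no bound. The authors' means of THY1 over all clones lay in the opposite order, 20.8 for 5637P and 15.7 for 5637GR.

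The members lie on 7 chromosomes, and their values were set beside those of the tested genes within 5 Mb on each side. The 235 neighbours of OVOL1 had a median log2 fold change of -0.32, and 8 of them were above OVOL1. The 30 neighbours of OVOL2 had a median of -0.53, close to the -0.72 of OVOL2 itself, with 22 above and 8 below it. The 9 neighbours of ZEB2 had a median of -0.61, which was -0.07 within 2 Mb. VIM was above all of its 41 neighbours, whose median was 0.02, and CDH2 was below 28 of its 29 neighbours, whose median was 0.24. GRHL2 was below 36 of 39 neighbours (median 0.15), ESRP1 below 40 of 44 (0.10) and ESRP2 above 102 of 121 (0.14). The median of the 33 neighbours of ZEB1 was 0.04 and that of the 13 neighbours of SNAI2 was 0.17.

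**Figure D5:**
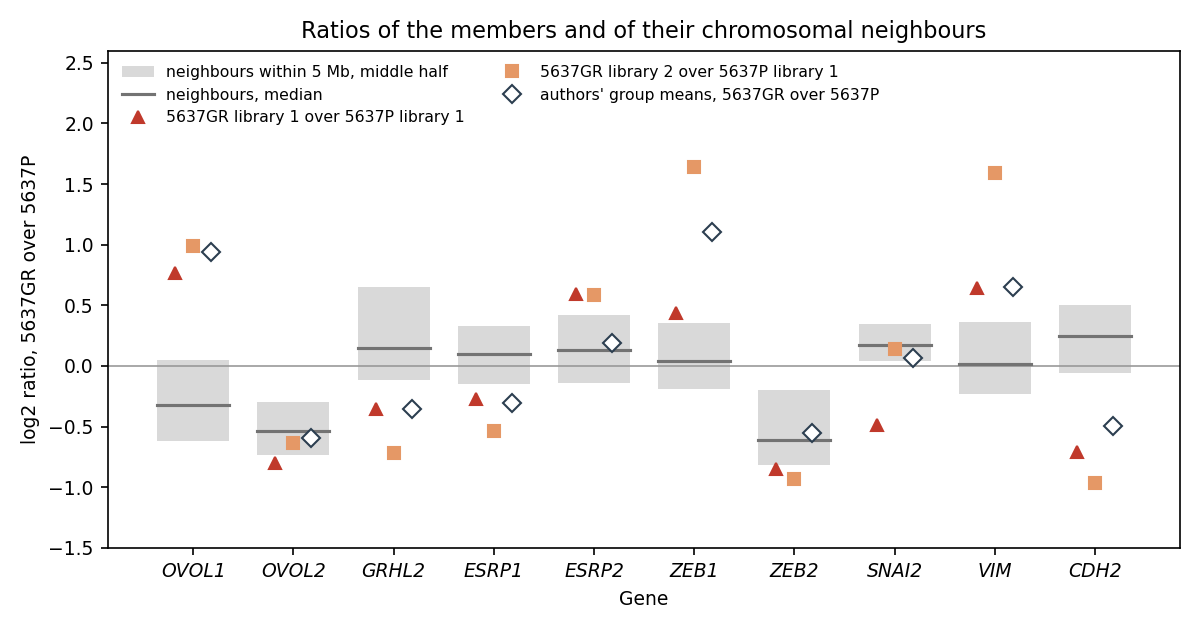
Log2 ratios of each member, for 5637GR library 1 (triangle) and library 2 (square) over the 5637P library. Diamonds are the authors' group mean of 5637GR over their group mean of 5637P. The line is the median and the grey box the range between the quartiles of the tested genes within 5 Mb. OVOL1, GRHL2, ESRP1, ZEB1, VIM and CDH2 lie outside the grey box at every symbol, and the line of OVOL2 is at -0.53, near its own values.

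Among 96 other genes of the fixed lists, the level profiles over the 3 libraries nearest to OVOL1 were those of BMP4 (Euclidean distance of centred log2 CPM 0.166), TGFBR2 (0.197) and CLDN1 (0.228). TGFBR2, a TGF-beta receptor, had 46.4 CPM in 5637P and 91.4 and 109 CPM in 5637GR. Nearest to OVOL2 were SMAD7 (distance 0.007), RBFOX2 (0.0118) and HNRNPM (0.101). SMAD7, an inhibitor of TGF-beta signalling, had 31.6 CPM in 5637P and 18.1 and 20.4 CPM in 5637GR. With 3 libraries such a likeness has little to tell profiles apart, and it is given as a description.

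The libraries held the keratins of a urothelial carcinoma, and their levels moved with the comparison. KRT5, a keratin of basal urothelium, fell from 272 CPM in 5637P to 9.78 and 13.8 CPM in 5637GR (log2 fold change -4.52, edgeR adjusted p 0.0006). UPK1B, a uroplakin gene, fell from 74 reads to 0 in both 5637GR libraries (edgeR adjusted p 0.00872), although the authors' mean for 5637GR was 20.4. For KRT5 the authors' means over all clones stood closer together, at 11544 for 5637P and 2047 for 5637GR, a log2 ratio of -2.49. The summed level of the 14 urothelial markers was 3582 CPM in 5637P and 2113 and 1841 CPM in 5637GR. Among them UPK3A was at 0 in all 3 libraries and KRT20 at 0 to 1 read. Of that sum, KRT7 alone had 1987.5 CPM in 5637P and 1047 and 868 CPM in 5637GR. Of the 10 markers tested, 8 were below the parental level in both 5637GR libraries, against 34.5% of all tested genes. EPCAM was above it in both, and the 5637GR libraries lay on either side of it for CDH1. In bulk RNA, fewer cells of a type and less RNA per cell cannot be told apart. The 5 leukocyte markers matched summed to between 0.781 and 1.53 CPM. Among the 7 fibroblast markers matched, LUM was at 0 and COL3A1 at 0 to 2 reads, while COL1A1 and COL1A2 made up most of a sum of 147 to 173 CPM. The 4 endothelial markers summed to 34.7 CPM in 5637P and 66.0 and 79.9 CPM in 5637GR, nearly all of it ENG, and CDH5 had at most 1 read. Whether these shifts have a part in the members' values was not tested.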

How the data were processed

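Messenger RNA purified on poly-T beads was sequenced by Novogene from single-cell clones of 5637P and 5637GR cells. The submitters' processing notes name CASAVA 1.8 and hg19, and the aligner, counter, annotation and strand setting are not given in the sources used here. The authors deposited raw read counts per gene and library, FPKM computed by the authors per gene length and library size, and a group signal, the authors' mean of size-factor scaled counts over the clones of a group. The deposited log2 fold changes and p-values of the authors' DESeq2 comparison were not used. A further 6 per-library columns, counts and FPKM of 3 libraries whose names matched no label, were not used. The study describes further clones of both lines, which enter here only through the authors' group means. Total counts were 14475531 in 5637P library 1, 15836788 in 5637GR library 1 and 17461941 in 5637GR library 2, and intervals and floors (3 counts) cover counting error only.

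Counts were fitted by edgeR 4.0.16 (R 4.3.3) with TMM factors (0.974, 1.03 and 0.995) and the quasi-likelihood test on 15643 genes kept by filterByExpr, with Benjamini-Hochberg adjustment over all of them. With 1 parental and 2 resistant libraries the fit had 1 residual degree of freedom. The 5637P library is therefore assumed to vary like the 5637GR pair. The fit added a median of 8.94 prior degrees of freedom, drawn from the spread of all tested genes. P-values and fitted intervals thus rest mostly on that shared spread and little on a gene's own. They cover no spread beyond these libraries. Log2 ratios of the authors' means used a pseudocount of 1. Values with 1 5637GR library left out were not refitted. They are log2 CPM ratios of the other 5637GR library over 5637P, with a prior count of 2. Exact Poisson and binomial intervals were at 95% (scipy 1.17.1, Python 3.11.15). Alternatives were DESeq2 1.42.0, its size factors, limma-voom (limma 3.58.1), no count filter, leaving out each 5637GR library, other pseudocounts, thresholds and window sizes and, chosen after seeing the data, alternatives for the read shares. The fits were tested on simulated data.

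The members and lists were chosen with earlier results of these data known. The named genes are all 10 members, the called genes of each list, CDH1, CDH3, SNAI1, TWIST1, the antisense partners and the nearest profiles of the OVOL genes. GRHL3, KRT8, KRT18, THY1, the marker genes other than KRT5 and UPK1B, and the overlapping genes SNX5 and MGME1 were named after their values were seen. Of 138 listed symbols, 130 matched by symbol or identifier.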

Additional observations from a re-analysis of the deposited data

How the results depend on the processing

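No paired analysis was run because the labels pair no 5637P clone with a 5637GR clone. None of the members was called under any fit, and their adjusted p ran from 0.32 to 0.974 with DESeq2's size factors, 0.426 to 1 with DESeq2 (no value for ZEB1), 0.524 to 0.968 with limma-voom and 0.144 to 0.929 with no count filter. The count of all genes called was 137, against 235 with DESeq2's size factors (40.9% higher in 5637GR, against 33.6%), 246 with DESeq2 (49.2% higher), 78 with limma-voom (15.4% higher), 534 of 26434 with no filter (51.1% higher) and 229 at an adjusted p of 0.10; with no filter the median of all genes was 0.12. SNAI2 turned to 0.14 without 5637GR replicate 1 (-0.49 without replicate 2) and to 0.062 in the authors' means.

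Leaving out 1 resistant library, list medians ranged from 0.16 to 0.58 for the other EMT transcription factors (-0.12 over genes of at least 10 CPM, 0.43 with no filter), -0.35 to -0.11 for the other epithelial factors, 0.22 to 0.30 for junction genes, -0.22 to 0.13 for mesenchymal genes, -0.36 to -0.15 for the TGF-beta pathway and 0.33 to 0.36 for antisense partners (0.84 with no filter, 0.72 in the reported fit). Neighbour medians within 2 Mb were -0.067 for ZEB2, 0.23 for GRHL2, 0.10 for VIM and 0.087 for CDH2, and within 10 Mb -0.53 for ZEB2, 0.030 for SNAI2 and 0.13 for CDH2. A further 12 values for single genes and read shares moved without a change of direction, 5 of the members' log2 values under the authors' means or a higher pseudocount among them. Values with 1 resistant library left out are log2 CPM ratios and no refit, so their measure differs from the reported fit too. The causes were not tested. With 1 labelled parental library, the spread between parental clones could not be estimated here, and the few ZEB1 reads gave wide counting intervals.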
